A study of Pimephales promelas with 20 samples.

Results

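Of 15208 probes for fish sequences on a one-colour Agilent array, 100 were chosen for a shift of their group median at the highest of 3 phenanthrene doses, with medians near the control level at both lower doses. RNA came from the liver of female fish after 48 h of exposure, the species being the fathead minnow Pimephales promelas, a common test fish in ecotoxicology. The groups were a control with 0 ng/L and no agent, and phenanthrene at 29, 287 and 1006 ng/L, with 5 arrays each. Whether each array stands for a separate fish is not stated in the labels. The p-values therefore measure the spread among these arrays alone, and part or all of it may be technical. The members were chosen on the authors' deposited table of log2 values, which its sample titles call loess normalized. A probe had to be detected well above background on 4 or more arrays of any group, a condition met by 10867 probes. Of these, 1530 probes (14.1%) had medians at 29 and at 287 ng/L that each lay within 0.2 log2 units of the control median. The 100 of them with the largest absolute difference between the 1006 ng/L median and the control median were kept. They comprised 44 upward probes, higher at 1006 ng/L, and 56 downward probes, lower at 1006 ng/L.

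Phenanthrene is a polycyclic aromatic hydrocarbon of crude oil and combustion residues. In fish, such compounds are taken up from water and oxidised mainly in the liver by cytochrome P450 enzymes, then conjugated and excreted in bile. Larger members of the class bind the aryl hydrocarbon receptor, a transcription factor that switches on the cytochrome P450 gene cyp1a, while phenanthrene itself is a weak ligand of that receptor. In mature females the liver also makes vitellogenin, the egg-yolk precursor, under control of oestrogen. None of the 15208 probe names matched the fathead minnow gene table at hand, so neither these genes nor liver markers could be looked up among the probes. The members are therefore given by probe name for the 2 largest differences in each direction and otherwise by rank of the difference. Each of the 100 probes was designed to a different sequence, 82 of them named as assembled contigs and 18 by a sequence number. In bulk liver, fewer cells of a type and less RNA per cell cannot be told apart.

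The arrays had between 8722 and 12797 probes well above background, or 57.4% to 84.1% of all. The 75th percentile of the processed intensity, a measure of array brightness, ranged from 151 to 684. In the limma fit of all 20 arrays, 22 of 10867 probes passed an adjusted p of 0.05 in 1006 ng/L against control, and 0 passed in each of the other 4 comparisons computed. With slide as a fixed block 1 probe passed in 1006 ng/L against control, and leaving out 1 array gave 1 (without control replicate 7) to 69 (without 29 ng/L replicate 26). At an unadjusted p under 0.05, limma called 517 probes in 1006 against 287 ng/L, 968 in 1006 against 29 ng/L, 592 in 287 ng/L against control and 612 in 29 ng/L against control. An ordinary linear model passed 31 probes in 1006 ng/L against control and 0 in the other 4.

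The values that chose the members describe the choice and test nothing. The difference of the 1006 ng/L and control medians of the 44 upward probes lay between 0.92 and 2.55 log2 units, with a median of 1.31 and an interquartile range of 1.07 to 1.61. That of the 56 downward probes lay between -2.98 and -0.92, with a median of -1.17 and an interquartile range of -1.43 to -1.08. Over all 10867 probes the same difference had a median of -0.023. The last 2 probes inside the size limit differed by -0.92 and 0.92 and the first 2 outside it by -0.92 and -0.92, so the list ends at no gap in the values. A difference at least as large as that of the last member was found in 2390 of the 10867 probes. All but the members had a median at least 0.2 log2 units from control at 1 or both lower doses.

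The largest upward difference belonged to UF_Ppr_AF_106930. Its deposited log2 values were 0.41, 3.56, 1.36, 2.44 and 2.31 on the controls, and 6.93, 4.49, 2.21, 1.81 and 1.91 at 29 ng/L. They were 2.22, 1.92, -0.52, 3.98 and 8.18 at 287 ng/L, and 2.11, 6.53, 4.86, 2.63 and 5.40 at 1006 ng/L. The highest value of all stood at 287 ng/L and the second highest at 29 ng/L, so all 4 groups overlapped. This was a dim probe, well above background on 1 control array, 2 arrays at 29 ng/L, 2 arrays at 287 ng/L and 4 arrays at 1006 ng/L. In the limma fit the difference between 1006 ng/L and control was 2.39 log2 units (SE 1.27, n = 5 arrays each) with a Benjamini-Hochberg adjusted p of 0.423. With normexp background correction the difference was 0.36, within slide 3 it was 1.28 and within slide 4 it was 3.15. The normexp run started from the median spot and background signals in place of the processed intensity. It also added a constant to every signal before the log, a step that shrinks log2 differences of dim probes. The part of either step in the difference of 0.36 was not tested. The probe met the detection rule through the 1006 ng/L group alone.

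The second upward probe, UF_Ppr_AF_105796, was well above background on 4 arrays each of the control, 29 and 287 ng/L groups and on all 5 arrays at 1006 ng/L. Its deposited log2 values were 4.55, 4.35, 5.03, 6.13 and 2.71 on the controls, and 4.76, 4.56, 2.56, 4.75 and 6.54 at 29 ng/L. They were 3.94, 4.58, 7.84, 6.09 and 4.33 at 287 ng/L, and 7.02, 4.31, 8.06, 8.49 and 4.40 at 1006 ng/L. Replicates 41, 44 and 45 at 1006 ng/L stood above every control, while replicates 42 and 46 lay within the control range. A single 287 ng/L array, replicate 35, reached 7.84. The fitted difference between 1006 ng/L and control was 1.90 (SE 0.96, n = 5 arrays each), with a limma adjusted p of 0.401. It was 1.03 with normexp background correction, 4.16 within slide 3, 1.61 within slide 4 and 2.89 within the scan session that held both slides.

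The largest downward difference belonged to UF_Ppr_AF_108524. Its deposited log2 values were 9.28, 5.18, 6.57, 2.50 and 6.22 on the controls, and 7.47, 3.86, 6.20, 6.34 and 2.85 at 29 ng/L. They were 6.90, 6.05, 6.92, 3.97 and 6.26 at 287 ng/L, and 0.98, 3.24, 2.68, 6.60 and 9.55 at 1006 ng/L. The 1006 ng/L arrays held both the lowest and the highest of the 20 values. The probe was well above background on 4 control arrays, on all 5 arrays at 29 and at 287 ng/L, and on 2 arrays at 1006 ng/L. Most of its 1006 ng/L values were thus not well above background. Its mean was 4.61 ± 3.43 at 1006 ng/L and 5.95 ± 2.45 on the controls (SD, n = 5 each), and the limma adjusted p of the fitted difference of -1.34 (SE 1.37) was 0.666. That difference was -0.20 with normexp background correction, -3.94 within slide 3, -2.80 within slide 4 and -3.37 within their scan session. It was -0.42 and -2.54 without 1006 ng/L replicates 41 and 46, and -0.56 and -2.17 without control replicates 3 and 6.

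The second downward probe, UF_Ppr_AF_107905, was well above background on all 20 arrays. Its deposited log2 values were 18.05, 12.68, 16.71, 8.81 and 12.76 on the controls, and 12.63, 13.46, 6.70, 13.86 and 12.23 at 29 ng/L. They were 10.44, 12.93, 17.49, 10.92 and 13.49 at 287 ng/L, and 9.89, 13.05, 9.36, 16.38 and 10.28 at 1006 ng/L. Arrays of the same group differed by several log2 units at every dose, and the control array replicate 6 lay below all 5 arrays at 1006 ng/L. Its mean was 11.79 ± 2.94 at 1006 ng/L and 13.80 ± 3.67 on the controls (SD, n = 5 each), with a fitted difference of -2.09 (SE 1.78) and a limma adjusted p of 0.595. Leaving out 1006 ng/L replicate 45 gave -3.21, and leaving out control replicate 3, 5 or 6 gave -1.06, -1.39 or -3.32. Within slide 3 the difference was -2.40 and within slide 4 it was -3.55. For all 4 of the named probes, then, the values at 1006 ng/L overlapped those of the controls.

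**Figure D1:**
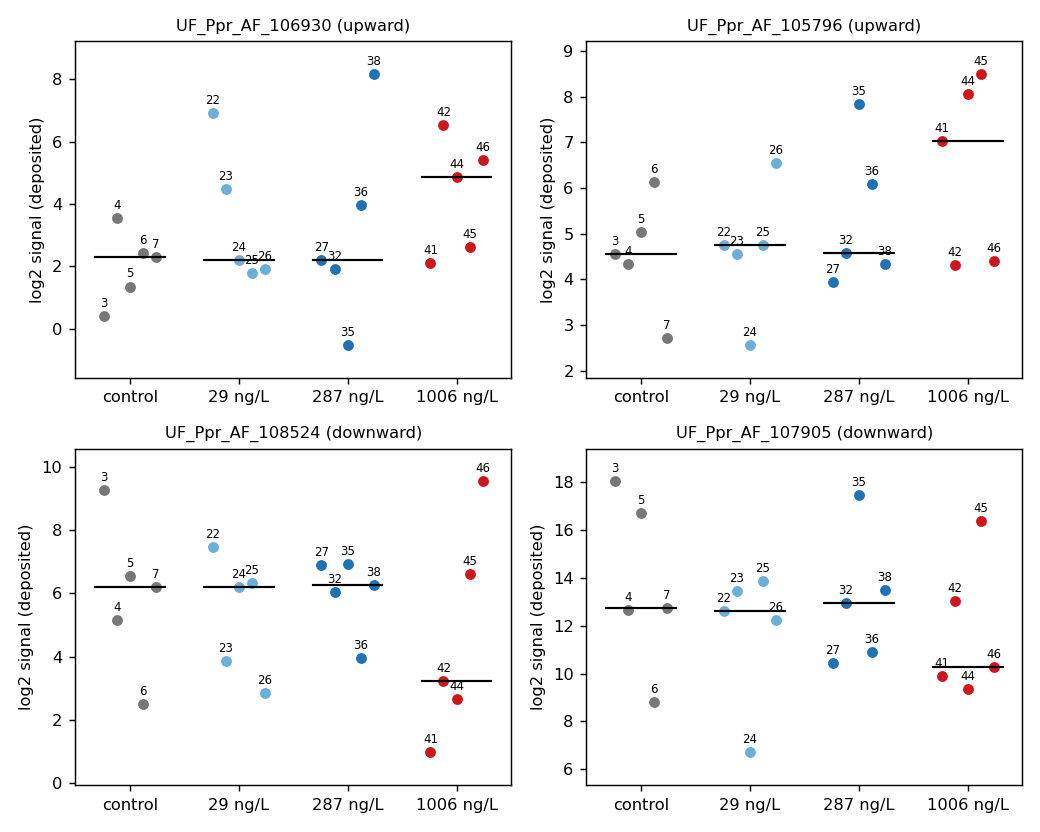
Deposited log2 signal of the 2 upward and 2 downward probes with the largest median differences, one point per array, in control, 29, 287 and 1006 ng/L groups of 5 arrays, with a bar at the group median. In each panel the 1006 ng/L values overlap the control values. The most extreme value in the direction of the choice stood at 1006 ng/L for UF_Ppr_AF_105796 (8.49) and UF_Ppr_AF_108524 (0.98), at 287 ng/L for UF_Ppr_AF_106930 (8.18) and at 29 ng/L for UF_Ppr_AF_107905 (6.70).

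Several members of lower rank had groups that did not overlap. The 5 arrays at 1006 ng/L lay wholly beyond the 5 controls for 1 of 44 upward probes and for 4 of 56 downward probes, against 2.32% of all tested probes in the upward and 1.22% in the downward direction. The rule used this contrast, so nothing is read from these counts. At least 3 of the 5 arrays lay beyond all controls for 30 upward and 41 downward probes, beside 14.9% and 15.4% of all tested probes. None of the 100 probes had all 5 arrays at 1006 ng/L beyond all 15 other arrays. The share of all tested probes was not computed for this last count, so nothing is read from it either.

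The downward probe ranked 4th was a bright one with separated groups. Its deposited log2 values were 11.01, 11.59, 11.08, 11.37 and 12.44 at 1006 ng/L, against 12.65, 13.82, 12.82, 14.12 and 13.25 on the controls. At 29 ng/L, however, replicate 22 read 11.58 and replicate 26 read 12.12, which is inside the 1006 ng/L range. At 287 ng/L, replicate 32 read 12.28, also inside that range, and replicate 27 read 12.52, below every control. The fitted difference between 1006 ng/L and control was -1.91 (SE 0.50, n = 5 arrays each), with a limma adjusted p of 0.119.

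The downward probe ranked 13th read 8.55, 9.64, 5.19, 6.94 and 8.40 at 1006 ng/L, against 9.87, 10.61, 9.91, 10.17 and 9.87 on the controls. The control values spanned less than 1 log2 unit and those at 1006 ng/L more than 4. Its fitted difference was -2.32 (SE 0.61, n = 5 arrays each) with a limma adjusted p of 0.120. The downward probes ranked 18th and 26th also had groups that did not overlap, with fitted differences of -1.63 (SE 0.58) and -1.59 (SE 0.44) and limma adjusted p of 0.280 and 0.149. Both lie in a region of spots, described below, that was dim on 1006 ng/L replicate 42.

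The only upward probe with separated groups was the one ranked 32nd. It read 11.71, 11.54, 11.70, 11.18 and 11.19 at 1006 ng/L, against 8.96, 10.62, 10.68, 10.46 and 9.77 on the controls. At 29 ng/L, replicate 26 read 11.65, as high as the 1006 ng/L arrays, while the other 4 arrays lay between 9.98 and 10.69. The fitted difference between 1006 ng/L and control was 1.35 (SE 0.35, n = 5 arrays each), with a limma adjusted p of 0.120.

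In the fit of all 20 arrays, 0 of 44 upward and 0 of 56 downward probes passed in 1006 ng/L against control, where 0.202% of all tested probes passed. The lowest limma adjusted p was 0.120 among the upward and 0.113 among the downward members. At an unadjusted p under 0.05, limma called 8 upward and 21 downward members in the direction of their choice, where 6.37% of tested probes were called higher and 6.66% lower. An ordinary linear model also passed 0 members after adjustment. Since the rule used these group medians, the counts describe the choice.

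The members were also set against the lower doses. In 1006 against 287 ng/L, 0 members and 0% of all tested probes passed the limma fit, and the lowest adjusted p of a member was 0.885. At an unadjusted p under 0.05, 8 upward and 13 downward members were called in that comparison, where 2.12% of tested probes were called higher and 2.64% lower. In 1006 against 29 ng/L, 0 members and 0% of all tested probes passed, with lowest adjusted p of 0.337 for upward and 0.320 for downward members. Unadjusted, 4 upward and 21 downward members were called there, where 3.63% of tested probes were called higher and 5.27% lower. At 287 and at 29 ng/L against control, 0 members and 0% of all tested probes passed the limma fit. At an unadjusted p under 0.05, 0 members were called in the direction of their choice in either comparison. Of all 10867 tested probes, limma called 299 higher and 293 lower at 287 ng/L, and 317 higher and 295 lower at 29 ng/L. The ordinary linear model passed 0 members in all of these comparisons. The medians at all doses chose the members, and these comparisons share arrays, so none of the counts is independent of the rule.

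Array by array, a shift of the upward probes was not confined to the highest dose. The values are those that chose the members, so they describe the choice and test nothing. The mean shift of the 44 upward probes from their control medians was -0.16, -0.21, -0.11, 0.89 and -0.11 log2 units on control replicates 3, 4, 5, 6 and 7. On 29 ng/L replicates 22 to 26 it was -0.056, 0.059, -0.62, 0.071 and 1.90, and on 287 ng/L replicates 27, 32, 35, 36 and 38 it was -0.14, -0.18, 1.09, 0.61 and -0.47. On 1006 ng/L replicates 41, 42, 44, 45 and 46 it was 1.22, 0.47, 1.93, 2.19 and -0.35. The upward probes were thus high on 3 of 5 arrays at 1006 ng/L, about as high on 29 ng/L replicate 26, and above their control medians on 287 ng/L replicate 35 and control replicate 6. On 1006 ng/L replicate 46 they lay on average below the control medians.

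The downward probes were low on several of the same arrays. Their mean shift was 0.17, -0.019, 0.12, -0.48 and -0.17 on control replicates 3, 4, 5, 6 and 7, and 0.36, 0.072, 0.15, -0.040 and -0.97 on 29 ng/L replicates 22 to 26. It was -0.0080, -0.18, -0.42, -0.64 and 0.068 on 287 ng/L replicates 27, 32, 35, 36 and 38, and -1.14, -0.73, -1.63, -1.67 and -0.48 on the 5 arrays at 1006 ng/L. All 5 arrays at 1006 ng/L were on average below the control medians. Within their range lay 29 ng/L replicate 26, 287 ng/L replicate 36 and, narrowly, control replicate 6, at -0.484 against -0.480 on 1006 ng/L replicate 46. The group mean of the downward probes was -1.13 ± 0.53 at 1006 ng/L and -0.077 ± 0.26 on the controls, and that of the upward probes 1.09 ± 1.05 at 1006 ng/L and 0.059 ± 0.47 on the controls (SD, n = 5 arrays each).

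**Figure D2:**
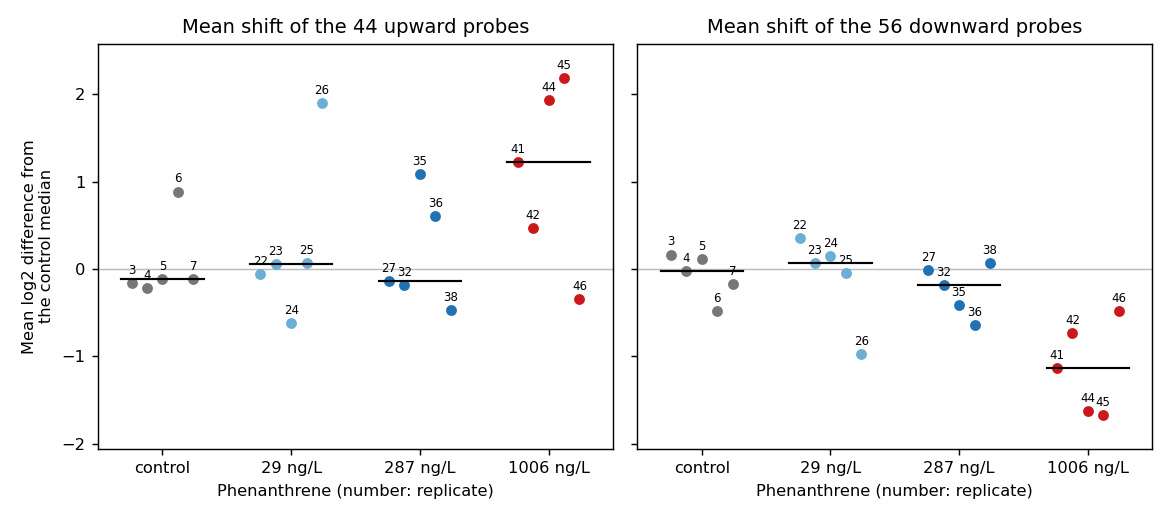
Mean shift (log2 units, deposited table) of the 44 upward probes and the 56 downward probes from their control medians, one point per array labelled with its replicate number, in groups of 5 arrays from control to 1006 ng/L with a bar at the group median. The upward probes reach 1.93 and 2.19 on 1006 ng/L replicates 44 and 45 and 1.90 on 29 ng/L replicate 26, and the downward probes reach -1.63, -1.67 and -0.97 on those arrays.

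Members beyond the controls were also counted on each array. Of the 44 upward probes, 22, 9, 39, 38 and 13 exceeded all 5 controls on 1006 ng/L replicates 41, 42, 44, 45 and 46. The shares were 50%, 20.5%, 88.6%, 86.4% and 29.5%, beside 16.1%, 19.5%, 24.2%, 27.4% and 23.6% of all tested probes on the same arrays. For the upward probes, replicates 42 and 46 were the nearest of the 5 arrays to the share of all probes. The same deposited values chose the members, so shares above those of all probes at 1006 ng/L follow from the choice and test nothing. The count was 35 (79.5%, beside 26.7%) on 29 ng/L replicate 26 and 24 (54.5%, beside 20.7%) on 287 ng/L replicate 35. Of the 56 downward probes, 31, 21, 46, 46 and 19 lay below all controls on those 5 arrays at 1006 ng/L. These were 55.4%, 37.5%, 82.1%, 82.1% and 33.9%, beside 19.4%, 14.8%, 29.0%, 29.6% and 18.2% of all tested probes. On 29 ng/L replicate 26 the downward count was 30 (53.6%, beside 29.5%). Control replicate 6 was the highest control for 27 upward probes (61.4%, beside 23.7%) and the lowest control for 23 downward probes (41.1%, beside 27.05%).

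The rule looks at group medians, which 1 or 2 shifted arrays of 5 need not move. At least 1 array at 29 ng/L lay beyond all controls, in the direction of the member's choice, for 40 of 44 upward and 37 of 56 downward probes, beside 63% and 61.1% of all tested probes. At 287 ng/L this was so for 30 upward and 35 downward probes, beside 51.8% and 46.8%. The most extreme of the 20 values stood outside the 1006 ng/L group for 19 upward probes, 15 of them on 29 ng/L replicate 26, and for 20 downward probes, beside 72.4% and 70.4% of all tested probes. Because the rule used all 4 medians, these counts describe the members and nothing is read from them. On 29 ng/L replicate 26 the value went past the 1006 ng/L median for 35 upward and 16 downward probes. The share of all tested probes was not computed here, so nothing is read from this count either.

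**Figure D3:**
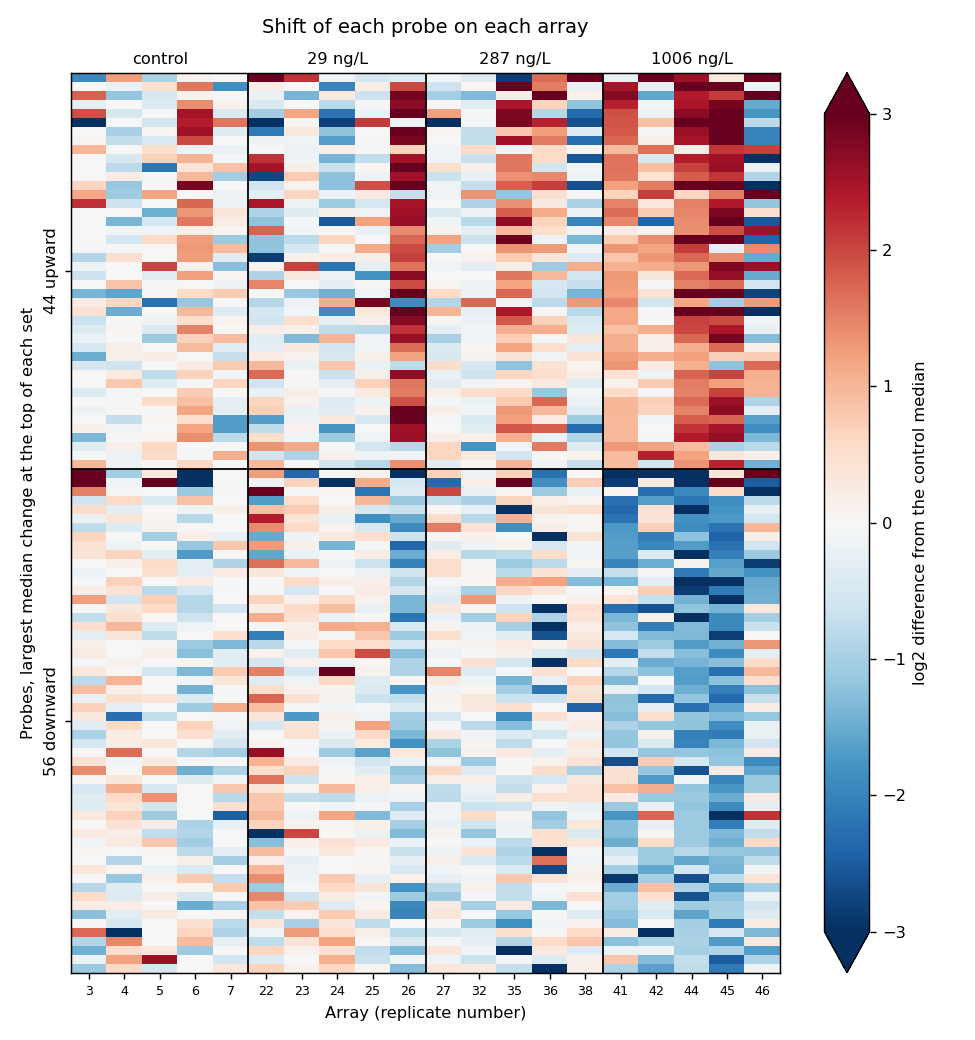
Difference of each member (lines, in log2 units of the deposited table) from its control median on each of the 20 arrays (columns, by group and replicate number), with the 44 upward probes above the 56 downward probes and the largest median difference at the top of each set. Colour ends at 3 log2 units either way, and 29 ng/L replicate 26 carries the colours of 1006 ng/L replicates 44 and 45 in most upward probes.

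Members of the same direction varied together to some degree over arrays of the same group. After removal of the group means, the mean Pearson correlation between pairs of upward probes over all 20 arrays was 0.34, that between pairs of downward probes 0.18, and that between an upward and a downward probe -0.25, against 0.0058 between all tested probes. Over the 15 arrays below 1006 ng/L the values were 0.34, 0.15 and -0.22. Without 29 ng/L replicate 26 they were 0.21, 0.051 and -0.10 over 14 arrays, so all 3 were closer to 0 without that array. The correlations are descriptions over probes that share the same arrays and their normalization. The members were split by the direction of their shift on these arrays, while pairs of all tested probes mix both directions. The value of 0.0058 is therefore no baseline for sets chosen by direction, and nothing is read from the contrast with it.

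Spread within groups was large in many members, and a choice of the largest median differences favours such probes. The SD within groups, pooled over the 4 groups, had a median of 1.21 log2 units over the upward and 0.89 over the downward probes, against 0.54 over the 1530 probes with steady lower doses and 0.73 over all tested probes. The SD at 1006 ng/L was larger than the SD of the controls for 38 of 44 upward and 41 of 56 downward probes, beside 61.0% of all tested probes. The control level, on the deposited log2 scale, had a median of 6.37 over upward and 7.89 over downward probes, both within the interquartile range of 5.06 to 9.08 over all tested probes. The values that chose the members hold this spread as well, so no test of it was made.

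Detection differed among the members. Of the 100 probes, 55 were well above background on all 20 arrays, 22 of them upward and 33 downward. There were 4 upward probes that met the detection rule through the 1006 ng/L group alone, and these had to differ from the controls to be kept. At 1006 ng/L, 11 downward probes were well above background on at most 2 of the 5 arrays, and 4 of these on none. Those 4, ranked 9th, 11th, 32nd and 33rd, were well above background on 2, 3, 2 and 3 of the 5 controls. As neither group was measured above background throughout, no fold is given for them.

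The order of the arrays in the upward probes was set beside their order in probes outside the list. The first principal component of the tested probes that are not members took 29.6% of their variance. It used the cyclic loess values of the 10578 such probes with no missing value. Its sign was set so that the 1006 ng/L group had a positive mean score, so the end called highest was not independent of the choice. Its score was -72.1, -43.6, -28.3, 37.98 and -32.6 on control replicates 3, 4, 5, 6 and 7, and -17.4, -18.1, -60.9, -20.8 and 104 on 29 ng/L replicates 22 to 26. It was -4.03, -26.0, 56.7, 13.3 and -58.3 on 287 ng/L replicates 27, 32, 35, 36 and 38, and 25.4, -6.07, 86.5, 108 and -44.1 on 1006 ng/L replicates 41, 42, 44, 45 and 46. The 7 arrays with the highest scores were the same 7 arrays on which the upward probes were highest, and they came from all 4 groups. The cut at 7 arrays followed no stated rule. The next highest score stood on 287 ng/L replicate 27, and the next highest shift on 1006 ng/L replicate 42. The part of this component in the shift of the members was not tested.

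Array brightness was set beside the members too. The 3 arrays with the highest 75th percentile of processed intensity were 29 ng/L replicate 26 at 511, 287 ng/L replicate 35 at 534 and 1006 ng/L replicate 45 at 684. The upward probes were high on all 3 of them. They were as high on 1006 ng/L replicate 44, whose 75th percentile was 246. The next brightest arrays, 287 ng/L replicate 32 at 426 and replicate 38 at 374, had mean shifts of -0.18 and -0.47. The cut at 3 arrays followed no stated rule. The part of brightness in the shift was not tested.

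**Figure D4:**
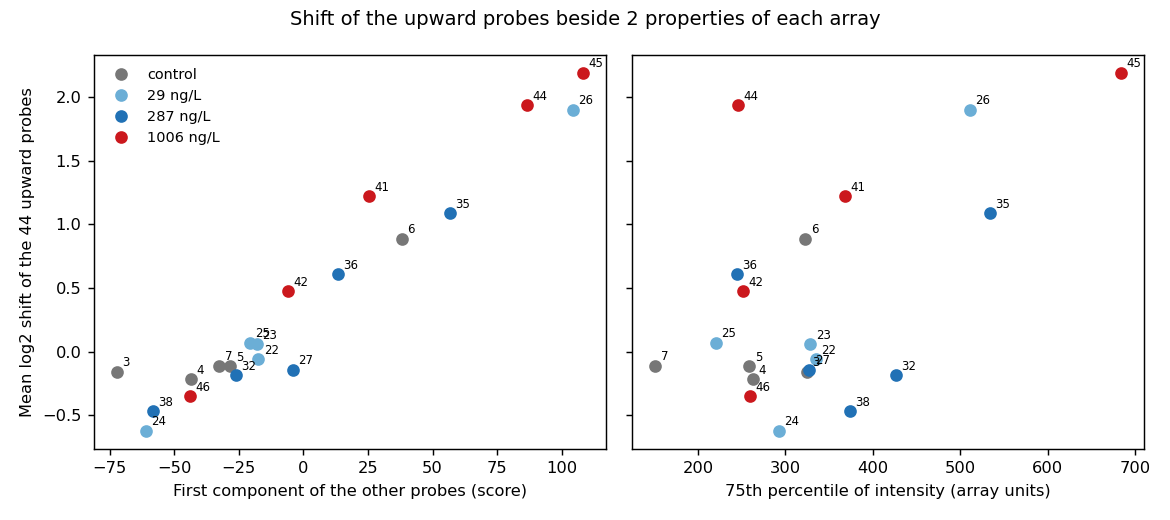
Mean shift of the 44 upward probes (vertical axis, log2 units) on each of the 20 arrays, labelled by replicate number and coloured by dose, against the score on the first principal component of the other tested probes and against the 75th percentile of processed intensity. The 7 arrays with the highest scores carry the 7 highest shifts, while 1006 ng/L replicate 44 combines a shift of 1.93 with an intensity of 246.

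Slides give values within a batch. On slide 3 the difference of the mean of 1006 ng/L arrays and the mean of controls had a median of 1.90 over the upward probes, positive for 43 of 44, and of -1.39 over the downward probes, negative for 54 of 56. On slide 4 the medians were 1.17, positive for 44 of 44, and -1.13, negative for 51 of 56. On slide 2, which held 1 array of each of these groups, 1006 ng/L replicate 46 and control replicate 6, the medians were -1.72 and -0.18, with the chosen direction in 14 of 44 and 32 of 56. Over all tested probes the medians were -0.13, -0.067 and 0.16 on slides 3, 4 and 2. The difference was positive for 4925, 5053 and 6176 of these 10867 probes. The upward probes had the chosen direction on slides 3 and 4 and the opposite one in the single pair of slide 2. The same deposited values chose the members, so the direction on slides 3 and 4 describes the choice and tests nothing.

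Spot position on the slide was set beside the members as well. When each array was divided into 96 blocks of spots, 2 arrays had blocks whose mean deviation from the probes' medians over all arrays was below -0.5 log2 units, relative to the median block of the array. These were 287 ng/L replicate 36, with 10 such blocks, and 1006 ng/L replicate 42, with 8. The dim blocks of 1006 ng/L replicate 42 held 891 tested probes (8.20%), and with them 13 of 56 downward probes (23.2%) and 1 of 44 upward probes (2.27%). Those of 287 ng/L replicate 36 held 1117 tested probes (10.3%), and likewise 13 downward and 1 upward probe. On 1006 ng/L replicate 42 the 13 downward probes had a mean shift of -1.40, against -0.53 for those outside the dim blocks. With all arrays, the median difference between 1006 ng/L and control was -1.24 for the 13 downward probes and -1.16 for the other downward probes. Without 1006 ng/L replicate 42 it was -1.03 and -1.28, a description of the values that chose them. The part of the dim region in the choice of the members was not tested.

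**Figure D5:**
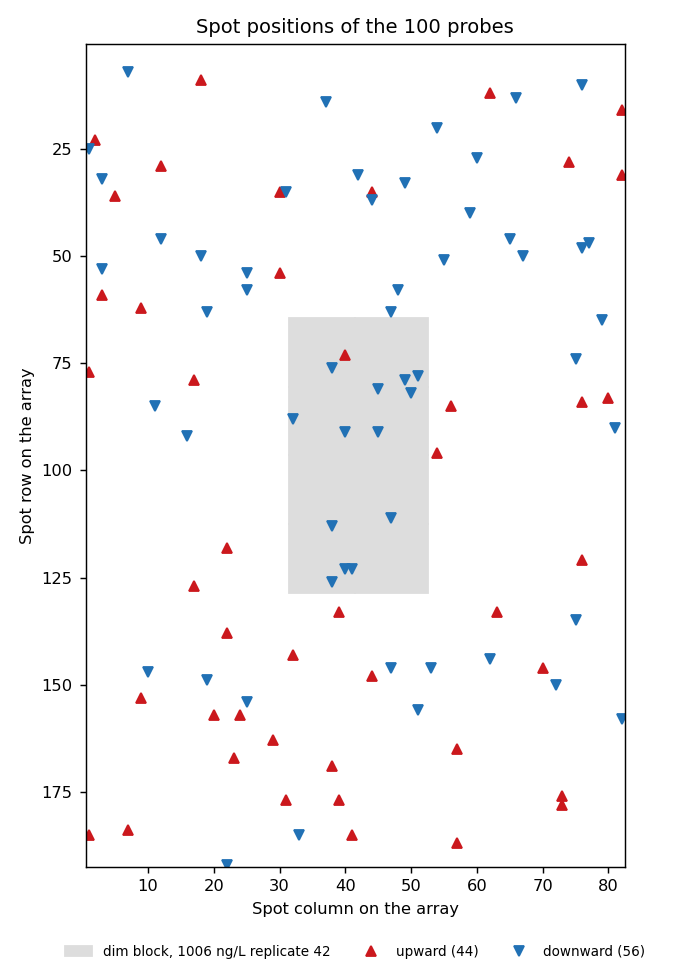
Spot positions on the array (column and row of the spot grid) of the 44 upward and 56 downward probes, with the blocks shaded that were dim on 1006 ng/L replicate 42. The shaded blocks hold 13 of the 56 downward probes and 1 of the 44 upward probes.

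A second probe to the same sequence was tested for 3 members, those ranked 16th, 25th and 26th among the downward probes. It gives a separate measurement of the same RNA on the same arrays. The members ranked 16th and 26th lie in the dim blocks of 1006 ng/L replicate 42. The medians of the member ranked 16th differed from control by 0.19, 0.066 and -1.40 at 29, 287 and 1006 ng/L, and those of its second probe by -1.45, -1.10 and -0.70. For the member ranked 25th the differences were 0.11, -0.079 and -1.23, and for its second probe -0.26, -0.59 and -0.57. For the member ranked 26th they were 0.099, 0.11 and -1.21, and for its second probe -0.24, -0.30 and -0.85. All 3 second probes were lower at 1006 ng/L than on the controls, as their partners were, and all 3 were also lower at both lower doses, by more than the 0.2 log2 units that the rule allowed. In the limma fit their adjusted p for 1006 ng/L against control were 0.787, 0.306 and 0.310.

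Leaving out 1 array changed the call of a single member. Without 1006 ng/L replicate 42, the downward probe ranked 12th passed, with a fitted difference of -1.59 (SE 0.32) and a limma adjusted p of 0.0411, against -1.32 and 0.113 with all arrays. Its deposited values were 14.34, 15.00, 12.93, 13.50 and 13.24 at 1006 ng/L, against 14.86, 15.04, 15.55, 14.77 and 15.28 on the controls. Replicate 42, at 15.00, was the one array at 1006 ng/L inside the control range. In the run without it, 24 of 10791 tested probes passed in 1006 ng/L against control. The rule used this contrast, so nothing is read from the call.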

How the data were processed

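Per the file headers, each array was read with Agilent Feature Extraction 10.7.1.1, and its processed intensity is background-subtracted and on a linear scale. The authors also deposited a table of log2 values, which its sample titles call loess normalized. The sources used here do not give the loess settings. Set against the scanner output, all 20 columns matched their own array best (r of at least 0.992), and the table holds 714 missing values, all on 287 ng/L replicate 36 and 0 of them in a member. The table's 1 column of no sample was not used.

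The members, their values by array and the medians come from the deposited log2 table. Tests come from the scanner output: outlier spots (240) were set to missing, saturated spots (8) kept, log2 processed intensity normalized by cyclic loess, and 10867 probes fitted over all 20 arrays with lmFit and eBayes in R 4.3.3 and limma 3.58.1. Tests were two-sided with Benjamini-Hochberg adjustment over these probes and a threshold of 0.05. The fit and the selection rule were run on simulated data with planted shifts, as a check of the code. The noise was far smaller than the spread of these arrays for the rule, and independent between probes for the fit. These runs do not tell how well either works on data like these. Other steps used Python 3.11.15, pandas 2.3.3 and numpy 2.4.6. Brightness over background and the number of arrays limit the precision.

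The members and the lists were chosen with earlier results of these data known. Probes to be named were the 10 largest differences in each direction, any member that passed, and members of gene and cell type lists. As 0 of 15208 probe names matched the gene table, the rule's fallback of 2 names in each direction was used, and the lists could not be applied. The members that were described for groups that did not overlap, for a call without 1 array or for a second probe were chosen after their values were seen. Slides 3 and 4 were scanned in session 1 and held 4 arrays of each group. Slides 1, 2 and 5 were scanned in session 2 with 1 array of each group. Alternatives were other normalizations, background corrections, detection filters, slide or session as a block, other bounds of the rule, and leaving out each array.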

Additional observations from a re-analysis of the deposited data

Results flagged for a closer look

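Of 32 sets of 5 arrays tested for an array far from the others of its group (Dixon's test, critical value 0.71), 5 held one. Chance flags about 1 in 20 independent sets, but these sets share arrays, and 3 of the 5 rest on the deposited values that chose the members, so their number is no test. On control replicate 6 the upward probes had a mean shift of 0.89 log2 units, while the other controls lay between -0.21 and -0.11. On 29 ng/L replicate 26 that shift was 1.90, and the other arrays at 29 ng/L lay between -0.62 and 0.071. The score of 29 ng/L replicate 26 on the first principal component of probes outside the list was 104, against -60.9 to -17.4 on the others. The 75th percentile of intensity was 684 for 1006 ng/L replicate 45 and between 246 and 368 for the rest of that dose. The deposited value of UF_Ppr_AF_107905 was 6.70 on 29 ng/L replicate 24 and between 12.23 and 13.86 on the others.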

How the results depend on the processing

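No paired analysis was possible because the groups share no replicate numbers. The member list depended on the processing. Of the 100 members, the same rule kept 59 with cyclic loess of the scanner output, 45 with 75th percentile scaling, 31 with normexp background correction, 18 with group means for medians, 22 with bounds of 0.1, 58 with bounds of 0.3 and 55 among probes well above background on all 20 arrays. The 22 and the 55 restate how many members met the narrower bounds or the stricter filter, since the rule keeps every such member. Leaving out 1 array kept 32 (without 287 ng/L replicate 38) to 78. The median difference of the upward probes was 0.88 to 1.501 and that of the downward probes -1.31 to -0.96 when 1 array was left out, and -1.72 and -0.18 within slide 2. Probes that passed in 1006 ng/L against control, 22 of all tested, were 12 with 75th percentile scaling, 36 with quantile normalization, 44 well above background on all 20 arrays, 1 with slide as a fixed block, 0 within slide 3 and 0 within slide 4 (1494 and 600 at an unadjusted p under 0.05), 1 within scan session 1, and 1 (without control replicate 7) to 69 (without 29 ng/L replicate 26) when 1 array was left out. It also moved by over 1.5 times without control replicates 3, 4 and 6, 29 ng/L replicate 22 and 1006 ng/L replicates 41, 44 and 46. In 1006 against 29 ng/L, 0 became 1 with the deposited table, 1 with quantile normalization and 0 to 17 when 1 array was left out. In 1006 against 287 ng/L and in 29 ng/L against control, leaving out 1 array gave 0 to 1. The 4 named probes passed under no alternative run that fitted them, with limma adjusted p of 0.329 to 0.807 for UF_Ppr_AF_106930, 0.178 to 0.802 for UF_Ppr_AF_105796, 0.174 to 0.914 for UF_Ppr_AF_108524 and 0.332 to 0.837 for UF_Ppr_AF_107905. UF_Ppr_AF_106930 was fitted in only 16 of the 20 runs that left out 1 array. In the other such runs it missed the detection filter and was not tested. The scan session fits, the differences within slide 2, which were not fitted, and the downward probes outside the dim blocks were added after seeing the data. Fits within a slide or session hold fewer arrays by construction. Otherwise the cause was not tested.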
